A study of Mus musculus with 8 samples.

Results

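Accessible chromatin was compared at 5 mouse forkhead genes, Foxp1, Foxp2, Foxp4, Foxo1 and Foxo3, in 4 hair follicle cell populations of back skin. A peak was assigned to a member when its midpoint lay inside the member's gene span, or within 100 kb of it with no nearer protein-coding gene. By this rule 422 of 266630 ATAC-seq peaks, which merged into 178 of 114956 sites, belonged to the 5 genes. ATAC-seq reads open DNA through adapters that a transposase inserts, so a site here is a stretch of open DNA. Being nearest to a gene does not show that a site regulates it. Foxp1 was taken up because earlier results of these data had shown many suprabasal sites there, so it was chosen by its measured site counts, and these are given as a description with no test.

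The bulge, which holds the resting stem cells of the follicle, and the hair germ below it, which is the first to proliferate in a new hair cycle, were both sorted at the second telogen (P55) from Lgr5-eGFP-ires-CreER mice. Bulge cells were GFP+, CD34+, Itga6+ and Itgb1+, and hair germ cells differed from them in being CD34-. Basal transient amplifying cells (TACs), the dividing progeny in the growing hair bulb, came from anagen follicles of the same strain at P30. They were sorted as Itgb1high, Pcad+ cells without GFP, CD34 or SCA1. Suprabasal TACs, also P30, came from K14-H2BGFP mice and were GFPlow, Itga6- and CD34-. In the first strain GFP is driven by the Lgr5 locus, a stem cell and hair germ gene, and in the other the keratin 14 promoter of basal keratinocytes drives a histone-bound GFP. Age and hair cycle stage therefore change together between telogen and TAC populations, strain changes as well for the suprabasal TACs, and these cannot be told apart. The labels name 2 samples of mixed sex per population, but the peaks were called once on both together, so there was 1 peak list per population, no replicate error, and no test between populations. Intervals given below are exact Clopper-Pearson 95% intervals, and they cover counting error only.

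Forkhead factors bind DNA through a winged-helix domain. Foxp proteins pair with each other through a leucine zipper and mostly repress transcription, in part with NuRD and CtBP corepressors. In hair follicle stem cells Foxp1 is known for maintaining quiescence, with the growth factor gene Fgf18 as a target. Foxo proteins respond to insulin and growth factor signalling: AKT phosphorylates them and they leave the nucleus, and when AKT is low they activate genes of cell cycle arrest, stress resistance and catabolism.

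The pooled libraries held 24065469 fragments in the bulge, 11053351 in hair germ cells, 30824845 in basal TACs and 47852893 in suprabasal TACs. Heights are given as FPM, the pileup (the number of fragments stacked at a peak's summit) per 1000000 fragments of the library. The lowest pileup that was called a peak was 0.416 FPM in the bulge, 0.543 in hair germ cells, 0.389 in basal TACs and 0.313 in suprabasal TACs. A low site could thus be listed in suprabasal TACs and missed in the hair germ at the same FPM. Equal FPM need not mean equal openness. Libraries also differed in height at sites open everywhere: the median pileup at autosomal sites held by all 4 lists was 4.16 FPM in the bulge, 4.25 in hair germ cells, 3.11 in basal TACs and 1.90 in suprabasal TACs. Over all sites shared by suprabasal TACs and bulge, the median log2 ratio was -1.07 on the FPM scale and 0.06 after division by these medians. Ratios of pileup between lists are therefore also given relative to the common-site median, called the relative ratio below. Among the marker genes, 7 bulge genes went from 103 bulge sites to 68 suprabasal sites in sum (6 had fewer and Lhx2 rose from 13 to 15), 5 matrix genes had 35 and 79, and 5 inner root sheath and shaft genes had 25 and 50. The 2 hair germ markers, Cdh3 and Lgr5, had 33, 27, 26 and 20 sites from bulge to suprabasal TACs, so they were not highest in the hair germ list. Among the other cell types, 4 melanocyte markers had 5, 3, 10 and 20 sites from bulge to suprabasal TACs, with Tyr at 0 in every list. The 4 immune markers had 3, 5, 12 and 12 sites, 3 endothelial markers 25, 25, 30 and 21, and 3 dermal markers 18, 10, 15 and 15. The 3 markers of interfollicular differentiation had 7 sites in each list. The part of other cell types in the results below was not tested.

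Each annotated start of Foxp1, Foxp4, Foxo1 and Foxo3 lay in exactly 1 site, and that site was held by all 4 lists. The promoter sequences below, of 250 bases before to 50 after each start, are RefSeq's for GRCm38.p6, the same build as mm10, and 4 of the 5 members matched an entry. The 3 Foxp1 promoters are shown because their accessibility followed different courses through the populations, and the Foxo3 promoter because it was the highest start site. All 4 read 5′ to 3′ on the gene's own strand. In Foxp1, which lies on the minus strand, capitals mark the forkhead core TGTTTA on either strand (TAAACA on the other strand). In Foxo3, also on the minus strand, capitals mark the Sp-type box GGGCGG or its reverse, CCGCCC.
Foxp1 start 1, chr6:99520944-99521243: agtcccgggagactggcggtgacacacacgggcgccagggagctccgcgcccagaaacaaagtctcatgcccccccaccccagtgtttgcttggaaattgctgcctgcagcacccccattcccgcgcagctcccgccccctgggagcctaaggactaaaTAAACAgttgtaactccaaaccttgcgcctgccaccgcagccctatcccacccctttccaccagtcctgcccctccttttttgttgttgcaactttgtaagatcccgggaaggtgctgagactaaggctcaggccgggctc
Foxp1 start 2, chr6:99266466-99266765: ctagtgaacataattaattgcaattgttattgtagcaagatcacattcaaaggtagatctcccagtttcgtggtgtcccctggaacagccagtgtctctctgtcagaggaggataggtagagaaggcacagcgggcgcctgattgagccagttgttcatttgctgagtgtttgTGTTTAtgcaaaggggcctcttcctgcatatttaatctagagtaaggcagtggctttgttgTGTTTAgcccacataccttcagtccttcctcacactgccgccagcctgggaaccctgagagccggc
Foxp1 start 3, chr6:99028249-99028548: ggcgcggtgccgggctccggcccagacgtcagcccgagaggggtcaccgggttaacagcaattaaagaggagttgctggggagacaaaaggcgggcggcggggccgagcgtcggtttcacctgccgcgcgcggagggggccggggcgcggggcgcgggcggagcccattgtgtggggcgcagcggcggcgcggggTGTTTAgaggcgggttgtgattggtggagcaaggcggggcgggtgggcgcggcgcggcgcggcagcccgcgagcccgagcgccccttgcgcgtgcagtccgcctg
Foxo3 start, chr10:42276646-42276945: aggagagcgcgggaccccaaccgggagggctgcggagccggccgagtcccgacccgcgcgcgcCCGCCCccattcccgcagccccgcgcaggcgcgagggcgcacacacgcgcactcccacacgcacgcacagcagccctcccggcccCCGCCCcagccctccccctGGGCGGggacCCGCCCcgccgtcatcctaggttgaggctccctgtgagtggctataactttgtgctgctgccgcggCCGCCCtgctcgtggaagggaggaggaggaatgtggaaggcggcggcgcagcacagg

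The middle Foxp1 promoter stood apart in composition. It had 48.7% G and C and an observed-to-expected CpG ratio of 0.282, against medians of 52.7% and 0.384 over 32851 RefSeq promoters. Start 1 had 60.3% and 0.499, and start 3 had 75.3% and 1.11. The promoters of Foxp4 (70.3% and 0.940), Foxo1 (61.3% and 1.1) and Foxo3 (75.0% and 0.834) had more G and C and more CpG than the median promoter. The forkhead core TGTTTA occurred once in Foxp1 starts 1 and 3 and at 2 places in start 2, and had no match in Foxp4, Foxo1 or Foxo3. Of all promoters of this length, 13.4% held the core and 1.58% held it at 2 or more places. The longer forkhead motif TGTTTAC, which contains the core, matched none of the 6 promoters (3.65% of all hold it). A TCF/LEF motif (CTTTGAA or CTTTGAT, in 8.65% of all) matched only Foxp1 start 2, 205 bases before the start. GGGCGG, held by 35.7% of all promoters, was found at 1, 0 and 3 places in Foxp1 starts 1, 2 and 3, at 2 in Foxp4 and at 5 each in Foxo1 and Foxo3. The CCAAT box (37.4% of all) was found at 1 place in Foxp1 start 3 and at 3 in Foxo1. AP-1 (TGANTCA, 7.81% of all) and CRE (TGACGTCA, 1.79%) had no match in these 6 windows. All motifs were searched on both strands, and a match is a stretch of letters and not a measured binding site.

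The 3 Foxp1 starts differed in how their openness ran along the lineage. At start 1 the pileup in FPM was 3.12 in the bulge, 1.90 in hair germ cells, 1.33 in basal TACs and 1.88 in suprabasal TACs. At start 2 it was 0.457, 1.09, 1.39 and 2.01 in the same order. At start 3 it was 3.74, 3.98, 5.06 and 2.70. Start 2 was thus lowest in the bulge and highest in suprabasal TACs, whereas start 1 was highest in the bulge and start 3 in basal TACs. The bulge peak at start 2 rested on a pileup of 11 fragments and was near the lowest called there. The suprabasal peak at start 2 rested on 96 fragments and was 4.39 times as high in FPM as the bulge peak. Fold enrichment over local background, the caller's own measure within each list, was 2.90, 5.44, 6.81 and 8.37 at start 2 in the same order, while at start 1 it was 5.92, 3.29, 4.11 and 3.86. Relative to the common-site median, start 2 went from 0.110 in the bulge to 0.255, 0.448 and 1.06, the same order as in FPM. At starts 1 and 3 the suprabasal against bulge comparison depended on the scaling: start 1 was lower in FPM and higher on the relative scale (0.750 in the bulge, 0.989 in suprabasal TACs), and so was start 3 (0.900 and 1.42).

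At the single starts of the other members the pileup fell from telogen to TACs on the FPM scale. The Foxp4 start (chr17:47924583-47924882) had 4.11 FPM in the bulge, 4.70 in hair germ cells, 2.14 in basal TACs and 1.17 in suprabasal TACs. The Foxo1 start (chr3:52268087-52268386) had 8.93, 12.1, 7.79 and 3.74. The Foxo3 start had 18.3, 16.1, 12.2 and 7.94, the highest of the 6 starts in each population. On the relative scale Foxp4 was still lower in the TACs, with 0.990, 1.11, 0.688 and 0.615. Foxo1 (2.15, 2.85, 2.5 and 1.97) then peaked in the hair germ, and Foxo3 (4.40, 3.79, 3.93 and 4.18) stayed between 3.79 and 4.40 in all 4 lists.

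**Figure D1:**
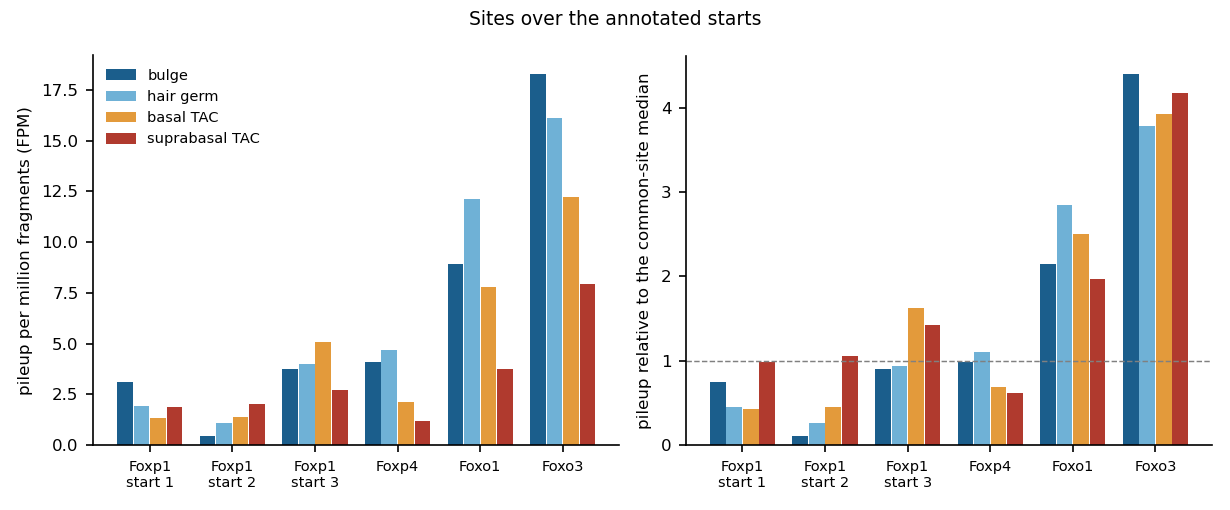
Pileup at the sites over the 6 annotated starts, in FPM (left) and relative to the median of autosomal sites held by all 4 lists (right, dashed line at 1); each bar is 1 pooled peak list. Foxp1 start 2 climbs from 0.457 FPM in the bulge to 2.01 in suprabasal TACs, and Foxo3 is highest throughout.

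The number of sites did not follow gene length. Foxp1 (chr6:98925342-99522746, 597 kb) had 92 sites, while Foxp2 (chr6:14901349-15441977, 541 kb) had 6. Foxo1 (chr3:52268337-52350109, 81.8 kb) had 37, Foxo3 (chr10:42181845-42276695, 94.9 kb) had 30 and Foxp4 (chr17:47867133-47924632, 57.5 kb) had 13. Of the 178 sites, 120 lay inside a span and 58 outside.

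Foxp1 had 41 sites in the bulge, 36 in hair germ cells, 53 in basal TACs and 74 in suprabasal TACs. Foxo1 had 18, 17, 28 and 25 in the same order. Foxo3 had 16, 14, 18 and 21. All 3 had their fewest sites in the hair germ, the least deeply sequenced population. Foxp4 had 11, 10, 11 and 9 sites, and Foxp2 had 2, 2, 4 and 2, so neither had more in suprabasal TACs than in the bulge. Of all 16799 genes with a site, 43.4% had more sites in suprabasal TACs than in the bulge and 21.6% had fewer. The Foxp1 difference of 33 sites between suprabasal TACs and bulge was exceeded at 1 gene, and its difference of 21 between suprabasal and basal TACs also at 1 gene. Foxp1 was chosen by its suprabasal sites, so these ranks follow from the choice and support nothing further. The differences are raw counts, not scaled to the number of sites at a gene. These differences fell to 17 and 11 when only peaks with a −log10 q of at least 10 were used, and to 18 and 11 with absence scaled for depth, and the ranks were not recomputed there.

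**Figure D2:**
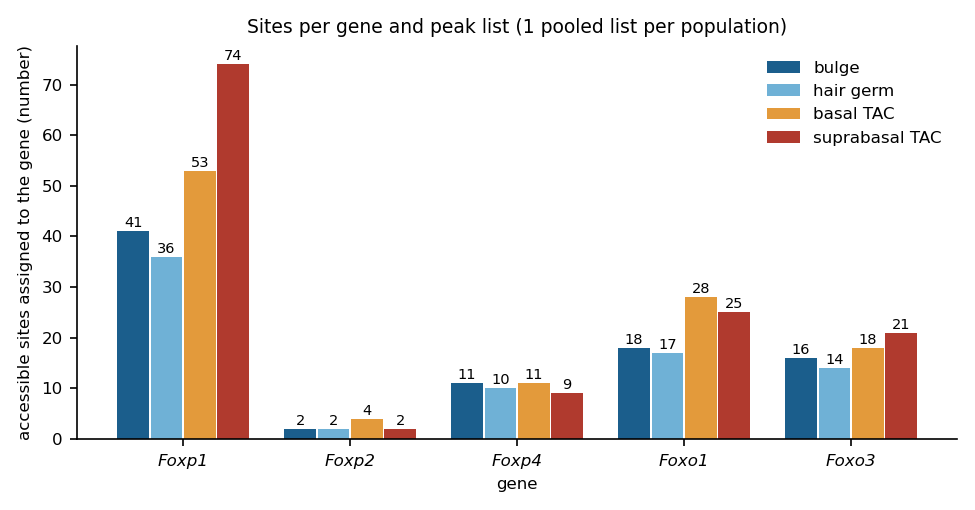
Number of accessible sites assigned to each gene in each of the 4 pooled peak lists. Foxp1 goes from 41 sites in the bulge to 74 in suprabasal TACs, while Foxp4 stays between 9 and 11 and Foxp2 between 2 and 4.

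A peak in all 4 lists was present at 51 of the 178 sites (28.7%), against 27.3% of all sites. Sites held only by TAC lists (basal, suprabasal or both) numbered 82, or 46.1% (95% interval 38.6 to 53.7), against 40.8% of all sites. Sites held only by the bulge, the hair germ or both numbered 22, or 12.4% (7.91 to 18.1), against 15.9%. The background shares lay inside these intervals for the telogen and TAC classes alike. By gene, the TAC-only sites were 46 of 92 at Foxp1, 4 of 6 at Foxp2, 2 of 13 at Foxp4, 17 of 37 at Foxo1 and 13 of 30 at Foxo3. Foxp4 differed in makeup: 7 of its 13 sites were held by all 4 lists. Sites held by all 4 lists were longer, with a median of 1318 bp at the 5 genes against 571 bp for the others. Over all sites the medians were 1284 and 547 bp. A site spans all of its merged peaks, so a site joined from 4 lists tends to be longer by construction.

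Between hair germ and bulge the members lost more sites than they gained. Of 25 sites held by only 1 of these lists, 8 were in the hair germ and 17 in the bulge. The share in the hair germ was 32.0% (15.0 to 53.5), against 33.5% over all changed sites, and the background share lay inside the interval. Of the 71 sites shared by both lists, 47 had the higher pileup in FPM in the hair germ, 66.2% (54.0 to 77.0) against 49.2% of all shared sites. On the relative scale the shares were 63.4% and 46.1%. The median log2 ratio of hair germ to bulge was 0.16 at the members and -0.01 over all shared sites. Foxp4 was higher in the hair germ at 8 of 10 shared sites, Foxo1 at 12 of 15 and Foxp1 at 20 of 31, whereas Foxo3 was higher at only 5 of 13. At least 2-fold higher in the hair germ were 3 Foxp1 and 3 Foxo1 sites, 6 of 71 in all, against 5.79% of all shared sites, and no member site was 2-fold lower (5.14% of all).

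From hair germ to basal TACs the members gained sites. Of 69 sites held by 1 list only, 52 were in basal TACs, 75.4% (63.5 to 84.9), against 71.3% over all changed sites. Foxp1 contributed 25 gained and 8 lost, Foxo1 14 and 3, and Foxo3 8 and 4. At the 62 shared sites the median log2 ratio was -0.42 on the FPM scale, against -0.50 over all, and relative to the common-site median it was 0.03. Of the 62, 22 were higher in basal TACs in FPM, 35.5% (23.7 to 48.7) against 28.3% of all shared sites, and on the relative scale the shares were 50.0% and 47.3%. Foxp4 lay below the members' median on both scales: 8 of its 9 shared sites were lower in basal TACs, with a median of -1.19 on the FPM scale and -0.74 on the relative scale.

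From basal to suprabasal TACs the 5 genes went different ways. Foxp1 gained 30 sites and lost 9, and Foxo3 gained 6 and lost 3. Foxo1 gained 5 and lost 8, Foxp4 gained none and lost 2, and Foxp2 gained 1 and lost 3. Together 62.7% (50.0 to 74.2) of 67 changed sites were in suprabasal TACs, against 45.4% of all changed sites, and without Foxp1 the share was 42.9% of 28. At the 44 shared Foxp1 sites, 22 were higher and 22 lower in suprabasal TACs in FPM, and the median log2 ratio was -0.03. The median of all shared sites was -0.57 on the FPM scale, and on the relative scale the 2 medians were 0.68 and 0.14. Over all 89 shared member sites, 39.3% (29.1 to 50.3) were higher in suprabasal TACs in FPM, against 21.1% of all shared sites. On the relative scale 68.5% were higher, against 58.9%. Without Foxp1 the shares were 28.9% (16.4 to 44.3) of 45 in FPM and 64.4% (48.8 to 78.1) on the relative scale. Both of these intervals hold the background share. Shares that include Foxp1 support nothing further, as it was chosen by its suprabasal sites.

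Set directly against the bulge, suprabasal TACs held 70 member sites of their own and the bulge held 27 of its own, so 72.2% (62.1 to 80.8) of changed sites were suprabasal, against 57.8% over all. Foxp1 had 44 against 11, Foxo1 had 11 against 4, Foxo3 had 12 against 7, and Foxp4 had 2 against 4. Without Foxp1 the share was 61.9% (45.6 to 76.4) of 42, an interval that holds the background share. Foxp1 was chosen by its suprabasal sites, so the shares that include it support nothing further. At the 61 shared member sites, 7 were at least 2-fold higher in suprabasal TACs in FPM (4.54% of all shared sites) and 24 at least 2-fold lower (52.8% of all). The scaling decided the direction: the median log2 ratio of the members was -0.73 on the FPM scale and 0.40 relative to the common-site median, where all shared sites had 0.06. The share of shared sites higher in suprabasal TACs was 31.1% (19.9 to 44.3) for the members and 16.3% for all in FPM, and 67.2% and 52.7% on the relative scale. Relative medians by gene were 0.44 at Foxp1, 0.73 at Foxo1, 0.24 at Foxp4 and -0.08 at Foxo3.

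Basal TACs against the bulge gave 51 sites gained and 25 lost, 67.1% (55.4 to 77.5) against 63.0% over all changed sites. This comparison and those above share their lists, so they are not independent. Of the 63 shared member sites, 46.0% (33.4 to 59.1) were higher in basal TACs in FPM, against 32.7% of all shared sites, and 57.1% on the relative scale, against 48.4%. Foxo1 gained 13 and lost 3, and 10 of its 15 shared sites were higher in basal TACs, with a median log2 ratio of 0.32 on the FPM scale and 0.73 on the relative scale. The shared sites of Foxo3 went the other way, with 8 of 10 lower and medians of -1.07 and -0.66. Foxp4 had 7 of 9 lower, with -0.96 and -0.55. Over all shared sites the medians were -0.45 and -0.03, so Foxo1 lay above them and Foxo3 and Foxp4 below them on both scales.

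**Figure D3:**
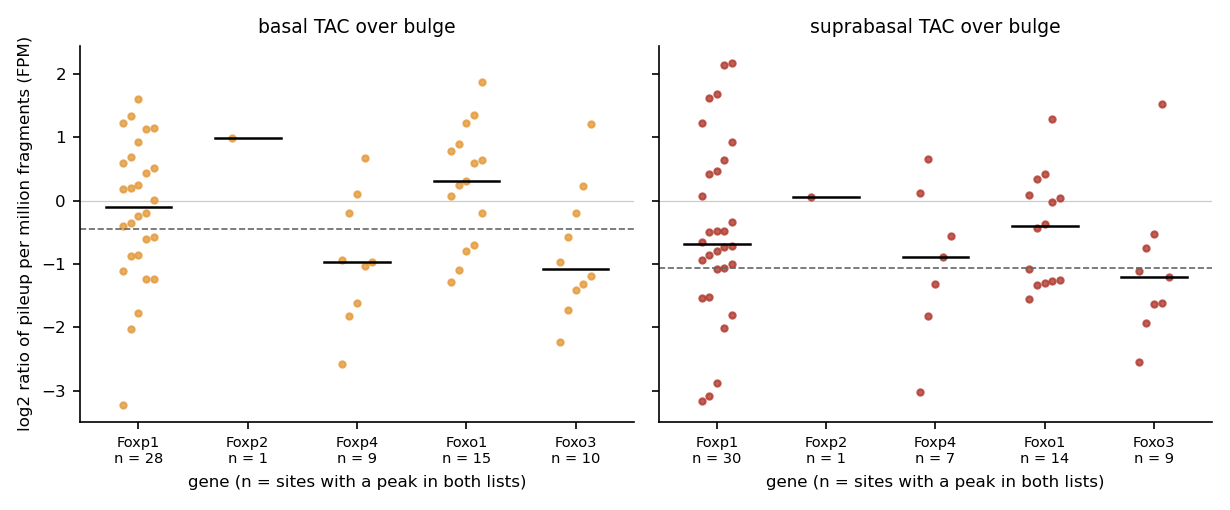
Log2 ratio of pileup in FPM at each member site shared with the bulge, for basal TACs (left) and suprabasal TACs (right); black bars are gene medians and dashed lines the median of all shared sites in the genome. Foxo1 has a median of 0.32 in basal TACs, and Foxo3 has -1.07 there.

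Along Foxp1 the sites were counted by stretch, and the stretches differ in length. Between start 1 and start 2, a stretch of 254 kb, the number of sites was 11 in the bulge, 11 in hair germ cells, 18 in basal TACs and 31 in suprabasal TACs. Between start 2 and start 3, 238 kb, it was 13, 9, 15 and 21. From start 3 to the gene end, 103 kb, it was 10, 9, 11 and 11. Per 100 kb these 3 stretches held 4.32, 5.46 and 9.71 bulge sites and 12.2, 8.82 and 10.7 suprabasal sites. The first stretch held 20 of the 46 TAC-only sites (43.5%) and the second held 14. The TAC-only shares of the 3 stretches were 60.6% (42.1 to 77.1), 48.3% (29.4 to 67.5) and 31.25% (11.0 to 58.7). These intervals overlap. The last stretch, which all 3 starts share, had 5 TAC-only and 4 telogen-only sites among its 16. Upstream of start 1 there were 3, 3, 5 and 7 sites, and beyond the gene end 4 in each list.

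The tallest and the second tallest Foxp1 site of both telogen lists lay near opposite ends of the gene. Tall sites were not confined to the ends, as sites between these reached 6.90 FPM in the bulge and 7.15 in hair germ cells. A site 7.84 kb upstream of start 1 (chr6:99528014-99529647) had 16.2 FPM in the bulge, 19.3 in hair germ cells, 7.49 in basal TACs and 4.62 in suprabasal TACs, and was the highest Foxp1 site in the first 3. Its relative log2 ratio of suprabasal TACs to bulge was -0.68. A site 51.1 kb upstream (chr6:99571508-99572724) had 8.14, 4.52, 0.876 and 0.961, with a relative log2 ratio of -1.96, the most negative of all Foxp1 sites held by all 4 lists. Both TAC populations were below both telogen populations at these upstream sites on the FPM scale. Near the other end of the gene, 572 kb downstream of start 1, chr6:98947357-98950500 was the second tallest telogen site, with 9.81, 8.78, 6.42 and 4.91. Close to it, chr6:98954135-98956501 had 6.23, 4.89, 7.40 and 3.59. The relative log2 ratios of suprabasal TACs to bulge at this pair were 0.13 and 0.33, so on that scale they were not lower in suprabasal TACs. Another course was seen at a site 45.7 kb downstream of start 1 (chr6:99474680-99475998), at 5.24 in bulge and 5.97 in hair germ cells, without a peak in basal TACs and at 0.585 in suprabasal TACs. At chr6:99501265-99501863, 19.4 kb downstream of start 1, the bulge had 4.11 and the hair germ 2.53, and no TAC list had a peak.

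The opposite course was seen deeper in the gene. At chr6:99252158-99254001, just past start 2 and 268 kb downstream of start 1, the pileup was 1.99 in the bulge, 2.17 in hair germ cells, 5.06 in basal TACs and 6.14 in suprabasal TACs, the highest Foxp1 site in that list. Its relative log2 ratio of suprabasal TACs to bulge was 2.75. At chr6:99013510-99015217, past start 3, the values were 0.665, 1.27, 1.01 and 3.01, with a relative log2 ratio of 3.31, the largest at the gene. The neighbouring site chr6:99007161-99008090 had 0.873 in the bulge, no hair germ peak, and 0.584 in basal against 2.80 in suprabasal TACs. These sites were highest in suprabasal TACs on both scales.

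The highest of the 46 TAC-only Foxp1 sites was chr6:99406972-99408556, 113 kb downstream of start 1, with 1.62 FPM in basal and 3.80 in suprabasal TACs. Next was chr6:99030099-99030884, beside start 3, with 3.02 and 2.59, and then chr6:99331332-99332254 with 1.04 and 2.42. These 3 were above the lowest pileups called anywhere in the telogen lists, but the caller weighs each peak against its local background. Over that background the site beside start 3 was enriched only 3.49-fold in basal and 3.90-fold in suprabasal TACs. Of the 46, 16 were in both TAC lists, 6 in basal TACs alone and 24 in suprabasal TACs alone. The 24 were mostly low, with a median of 0.794 FPM and a highest value of 1.505 (chr6:99108525-99109206). Of these 24, 15 exceeded the 10th percentile of pileup in FPM in the bulge list, 0.748, and 9 exceeded that of the hair germ list, 0.905. This count was made in FPM, which ran lower in suprabasal TACs at common sites, and was not made on the relative scale. The same count over all suprabasal-only sites of the genome is not given here, so no trait of Foxp1 is read from it. For sites that did not exceed a percentile, an absent telogen peak could not be told apart from depth in FPM. With absence scaled for depth in this way, Foxp1 had 29 suprabasal sites against 11 bulge sites. Over all genes the suprabasal share was then 41.2%. Because Foxp1 was chosen by its suprabasal sites, its excess here follows from the choice and supports nothing further.

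A few Foxp1 sites were found in 1 telogen list. The hair germ alone held chr6:98975899-98976467 at 4.70 FPM, next to a site held by all 4 lists (chr6:98971795-98973234) at 3.99, 5.43, 3.47 and 0.543. The latter was among the sites lowest in suprabasal TACs, with a relative log2 ratio of -1.75. The 4 sites found in the bulge alone were low, from 0.831 to 1.08 FPM.

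**Figure D4:**
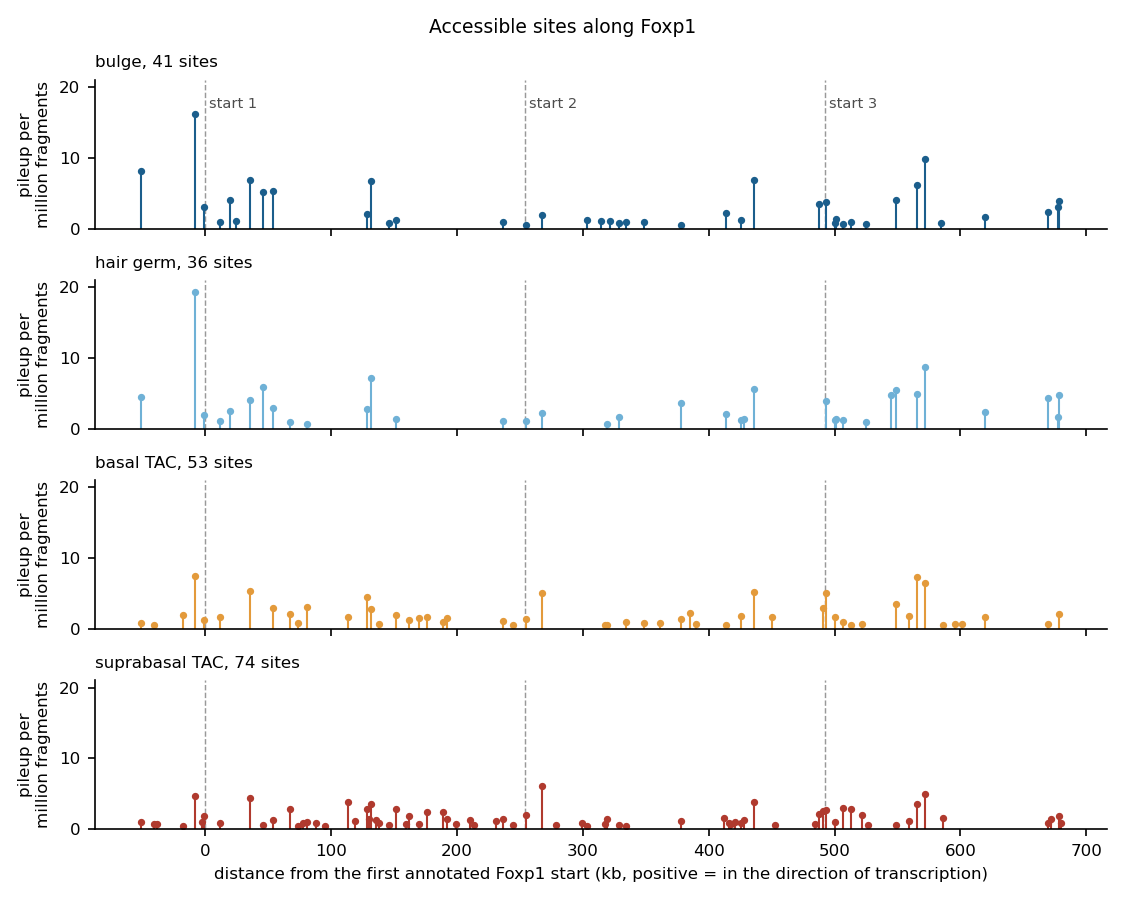
Height of every Foxp1 site in each pooled peak list (in FPM) against its distance in kb from start 1, positive in the direction of transcription, with dashed lines at the 3 starts. The tall site just upstream of start 1 shrinks from 16.2 in the bulge to 4.62 in suprabasal TACs, while the stretch from start 1 to start 2 fills from 11 to 31 sites.

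Foxp4, a repressor close in sequence to Foxp1, was most open upstream of its start in telogen. A site 50.8 kb upstream (chr17:47973754-47977131) had 13.9 FPM in the bulge, 8.87 in hair germ cells, 2.34 in basal TACs and 1.71 in suprabasal TACs, with a relative log2 ratio of suprabasal TACs to bulge of -1.89. A site 34.1 kb upstream (chr17:47958012-47959518) had 6.32, 7.42 and 3.24 and no suprabasal peak. At 13.6 kb upstream (chr17:47937756-47938689) the values were 5.36, 6.69 and 1.52, again with no suprabasal peak. In FPM all 3 upstream sites were thus at their lowest in suprabasal TACs or unlisted there. Relative to the common-site median, the site 50.8 kb upstream was lowest in basal TACs, at 0.750 against 0.901 in suprabasal TACs. Past the other end of the gene, chr17:47853609-47855248 ran the opposite way: it had no telogen peak, 3.60 in basal and 4.16 in suprabasal TACs, the highest Foxp4 site in both TAC lists. The only other TAC-only site, chr17:47903905-47904557 inside the gene, had 0.941 and 1.23.

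Foxo1, the Foxo factor best known for metabolic control, had its 2 tallest telogen sites at the start and upstream of it. A site 69.3 kb upstream (chr3:52197943-52200039) had 8.73 FPM in the bulge, 9.77 in hair germ cells, 3.57 in basal TACs and 3.53 in suprabasal TACs. Beside it the bulge alone held chr3:52196478-52196893 at 4.65. Inside the gene, chr3:52342056-52343965 had 3.66, 3.98, 6.26 and 2.82, highest in basal TACs. Past the gene end, chr3:52376834-52377524 was the site with the largest relative log2 ratio of suprabasal TACs to bulge, 2.42, with 0.623, 3.26, 2.27 and 1.53 FPM, so it was already high in the hair germ. The highest TAC-only sites were chr3:52409510-52410494 with 3.08 in basal and 0.773 in suprabasal TACs, chr3:52385790-52387503 with 2.43 and 0.460, and chr3:52302910-52303715 with 1.59 and 2.34. Of the 17 TAC-only sites, 7 were in both TAC lists, 6 in basal TACs alone and 4 in suprabasal TACs alone. The 4 suprabasal ones were at most 0.690 FPM, below the 10th percentile of both telogen lists in FPM. The 6 basal ones had a median of 0.681 FPM, and 2 exceeded that percentile in the bulge list and 2 in the hair germ list. No share over all single-list sites of the genome stands beside these counts, so no trait of Foxo1 is read from them.

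Foxo3, known for stem cell quiescence and stress resistance in several tissues, had the highest site of the 5 genes in every list except that of the hair germ, where a Foxp1 site was higher. A site past its gene end (chr10:42134913-42136047) had 15.7 FPM in the bulge, 10.6 in hair germ cells, 3.34 in basal TACs and 5.10 in suprabasal TACs. An internal site 25.2 kb from the start (chr10:42251057-42252033) had 11.4, 9.05, 5.87 and 1.96, with a relative log2 ratio of suprabasal TACs to bulge of -1.41. At chr10:42204707-42205541 the values were 6.52, 4.43 and 2.47, with no suprabasal peak. These telogen-high sites stood beside sites listed in TACs alone. One of them, chr10:42147705-42148826, had 1.04 in basal and 4.26 in suprabasal TACs. Another, chr10:42265228-42266863, 10.7 kb from the start, was higher in basal TACs, with 4.54 against 1.57. At chr10:42177891-42179442, just past the gene end, the pileup ran from 1.21 in the bulge to 1.90, 2.79 and 3.47, the only Foxo3 site of all 4 lists that was higher in suprabasal TACs than in the bulge in FPM. The highest suprabasal-only site, chr10:42274124-42275499, had 2.17 FPM but a fold enrichment of only 1.84 over its local background, and it lies beside the start site.

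**Figure D5:**
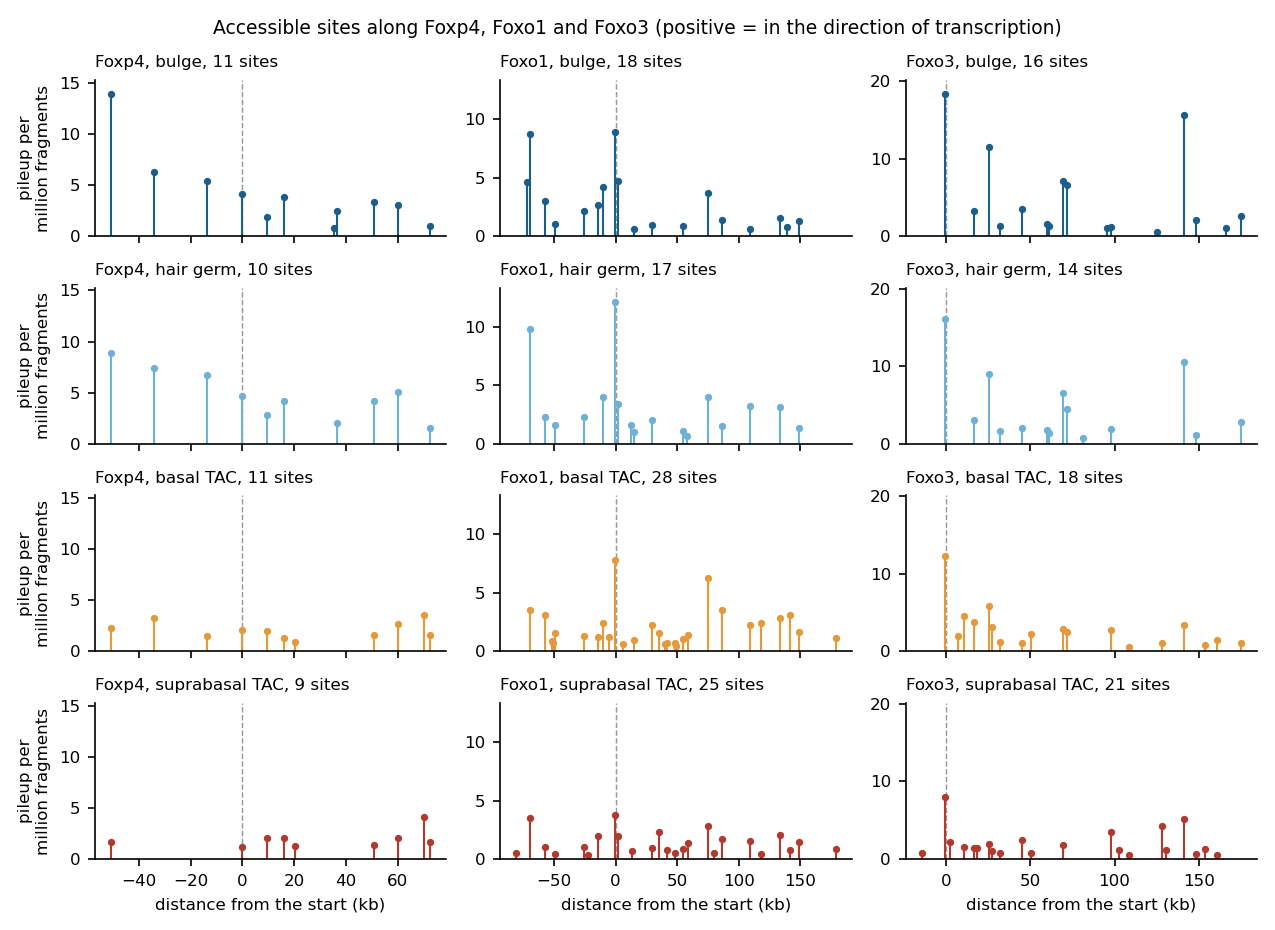
Height of every site at Foxp4, Foxo1 and Foxo3 (columns) in each pooled peak list (rows), in FPM, against the distance in kb from the gene's start (dashed line), positive in the direction of transcription. The Foxp4 upstream sites shrink from up to 13.9 in the bulge to 1.71 or no peak in suprabasal TACs, and the Foxo3 start stays the tallest site in the basal TAC list at 12.2.

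Foxp2, better known from brain and lung, had few and low sites in all 4 populations. Its 6 sites had at most 1.17 FPM, under the median of all sites in the bulge, 2.33, and in basal TACs, 1.69. The one site held by all 4 lists lay at the low-coordinate end of the gene (chr6:14900129-14902237), with 0.540 in the bulge, 0.905 in hair germ cells, 1.07 in basal TACs and 0.564 in suprabasal TACs. The other 5 were 1 site of both telogen lists (chr6:15411370-15411762, 0.706 and 0.814), 3 of basal TACs alone and 1 of suprabasal TACs alone.

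The window of 100 kb had few sites near its edge. The farthest Foxo1 site inside it, at 96.8 kb, had 1.14 FPM in basal and 0.878 in suprabasal TACs, and the nearest outside, at 102 kb, had 0.779 in basal TACs alone. At Foxp1 the farthest inside, at 84.2 kb, was suprabasal only (0.857), and the nearest outside, at 138 kb, was bulge only (0.956).

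The pathway upstream of the Foxo factors showed no common direction in site number. Of 17 genes of insulin, PI3K and AKT signalling, 6 had more sites in suprabasal TACs than in the bulge, 7 fewer and 4 the same number. These are 35.3% with more, against 43.4% of all genes, and 41.2% with fewer, against 21.6%. The receptor gene Igf1r went from 17 sites in the bulge to 15 in hair germ cells, 24 in basal TACs and 29 in suprabasal TACs, and the adaptor gene Irs1 had 7, 8, 14 and 14. The phosphatase gene Inpp4b had 18, 16, 21 and 9, and Pik3r1, which encodes a regulatory PI3K subunit, had 23, 21, 18 and 19. The median difference of the 17 genes was 0, as over all genes with a site.

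Of 18 known Foxo targets, 8 had more sites in suprabasal TACs than in the bulge, 8 fewer and 2 the same number. The share with more was 44.4%, against 43.4% of all genes, and the share with fewer was also 44.4%, against 21.6%. Gadd45a, a stress response gene, had 8, 9, 11 and 14 sites from bulge to suprabasal TACs. Cdkn1a, the gene of the cell cycle inhibitor p21, had 3, 3, 3 and 6. Bcl6, a transcriptional repressor gene, had 21, 14, 14 and 11. Among 12 Foxp partners and targets, 4 had more sites (33.3%), 5 fewer (41.7%) and 3 the same number, against the same 43.4% and 21.6%. With so few genes these shares are imprecise. Of all 16799 genes with a site, 5892 had the same number in both lists. That background was not matched for the number of sites per gene, so no tendency is read from these shares or those of the upstream genes. The corepressor gene Ctbp2 had 12, 11, 18 and 22 sites, while Fgf18, the Foxp1 target of the follicle, had 9, 4, 6 and 4.

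Some genes had site counts distributed over the 4 lists most like a member's. The measure was the Euclidean distance between the shares of the 4 lists, over 4 populations, among 969 or 970 genes with at least 20 sites. Nearest to Foxp1 were Lipc (12, 10, 16 and 22 sites, distance 0.0126), Sema6a (0.0153) and Gse1 (0.0171). Nearest to Foxo1 were Lrrc8d (0.00947), Bace2 (0.0118) and Lmntd1 (0.0128). Asap1 (0.00664), Rora (0.00745) and Epha4 (0.0109) were nearest to Foxo3, and Ltbp1 (0.0170), Sgk1 (0.0172) and Nedd4l (0.0186) to Foxp4. Within a distance of 0.05 lay 60 genes for Foxp1, 90 for Foxo1, 110 for Foxp4 and 153 for Foxo3. How many genes lie that near to a typical gene is not given here.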

How the data were processed

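ATAC-seq peak lists of 4 sorted mouse populations (8 samples, 2 pooled per list) were analysed. MACS 2.1.1.20160309 was run by the authors, per the file headers, at a q-value cutoff of 0.05, without a control, with an effective genome size of 1.87e+09 and a 10 kb local window. The submitters' processing notes name Bowtie2 2.2.9, the mm10 build and Picard. The sources used here give no shift of read ends for the transposase, which limits positions at peak edges. The authors deposited for each peak a pileup signal (fragment coverage, not scaled for depth), a fold enrichment ratio over local background and both −log10 p-value and −log10 q-value columns. The last 2 had damaged names and were told apart by their place.

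Peaks of chromosomes Y and M were left out. Peaks overlapping by at least 1 bp were merged into sites, and the highest pileup per list was divided by header fragments. Gene spans and promoters came from RefSeq GRCm38.p6. Python 3.11.15, pandas 2.3.3 and scipy 1.17.1 were used, and the merging and assignment were tested on simulated peaks. Members, gene lists and tests were chosen with earlier results of these data known. Sites were named by rule: over each start, the 3 highest held by all lists, by telogen lists only and by TAC lists only, the 2 highest of each single list, and the 3 largest and smallest suprabasal to bulge ratios. The Foxp1 sites at chr6:99474680-99475998 and chr6:99007161-99008090, the Foxp4 sites at chr17:47958012-47959518 and chr17:47937756-47938689 and the Foxo3 site at chr10:42204707-42205541 fall outside it and were chosen after their values were seen. From each gene list up to 3 genes with the largest rise and fall were named.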

Additional observations from a re-analysis of the deposited data

How the results depend on the processing

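No paired analysis was possible because each list pools both samples of a population. The share of changed member sites was 53.3% in the hair germ against the bulge with equal numbers of peaks per list, which turns its direction (46.8% over all sites). Basal TACs against hair germ gave 86.0% at a −log10 q of at least 10 (80.2% over all sites) and 53.1% with equal numbers (51.9%), and basal TACs against bulge 54.2% with equal numbers (50.3%). Without Foxp1, suprabasal TACs against basal TACs gave 42.9%, a reversal, and against the bulge 61.9%. Relative to the common-site median, the share of shared member sites with the higher pileup was 50.0% for basal TACs against hair germ, and it reversed to 68.5% for suprabasal against basal TACs, 67.2% for suprabasal TACs against bulge and 57.1% for basal TACs against bulge. The last also reversed inside gene spans only (52.8%), and suprabasal against basal TACs was 28.9% without Foxp1. The excess of changed sites reversed to 1 at Foxp1 (equal numbers), to 1 (within 20 kb), 2 (inside the span) and 1 (equal numbers) at Foxo1, and to 1 at Foxo3 (inside the span), all for hair germ against bulge. It also reversed to 1 at Foxo1 for suprabasal against basal TACs (equal numbers). The cause of these changes was not tested.

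The log2 ratios at start sites relative to the common-site median, an alternative chosen after seeing the data, reversed to 0.40 (Foxp1 start 1) and 0.66 (Foxp1 start 3) for suprabasal TACs against bulge, 0.22 (Foxo1, basal TACs against bulge), 0.052 (Foxo3, basal TACs against hair germ) and 0.089 (Foxo3, suprabasal against basal TACs). The excess of 33 suprabasal over bulge sites at Foxp1 was 17 at a −log10 q of at least 10, 24 with equal numbers and 18 with depth-scaled absence. The excess of 21 over basal TACs was 11, 23 and 11. Foxp1 sites fell to 48 in suprabasal TACs and 21 in the hair germ at the stricter threshold. The hair germ library, with 11053351 fragments, limits what low sites could be seen there. Requiring an overlap of 50% of the shorter peak, or taking the lowest peak of a site, turned no share.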

Other observations

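Of 39 other forkhead genes, 36 had a site, and 19 of them had more sites in suprabasal TACs than in the bulge, 4 fewer and 13 the same number. That is 52.8% with more, against 43.4% of all genes, and 11.1% with fewer, against 21.6%. Their summed sites were 127 in the bulge, 113 in hair germ cells, 156 in basal TACs and 157 in suprabasal TACs, while those of all genes were 55343, 49681, 67455 and 65015, a rise of similar proportion. Foxn1, the nude locus gene needed for hair shaft differentiation, had 3, 3, 5 and 7 sites, and Foxq1, the gene of the satin hair mutant, had 5, 4, 8 and 9. Foxe1 had 2, 2, 4 and 5. In the other direction, Foxc1, known for holding hair follicle stem cells in quiescence, had 6, 7, 5 and 4 sites, and Foxf2 had 4, 2, 3 and 2. Foxn3, the forkhead gene with the most sites on this list, had 33, 30, 41 and 36.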
